A study of Solanum lycopersicum with 6 samples.

Results

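The genes described here encode ribosomal proteins of the bacterial type, whose descriptions in the deposited table name a 30S (small) or a 50S (large) ribosomal subunit. The phrase "30S ribosomal protein" or "50S ribosomal protein" selected 83 of the 36224 rows, and no measured value took part in the choice. Of these, 22 named the small and 61 the large subunit. A chloroplast was named in 47 of the descriptions, a mitochondrion in 3 and neither in 33. The 33 rows with neither word were kept apart, since the table does not say which compartment their proteins enter, and only the 47 can be called plastid-type from their descriptions.

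RNA was sequenced from the pericarp (fruit wall) of tomato, Solanum lycopersicum, in the Ailsa Craig background, with every fruit taken at 37 days after anthesis from plants grown in one greenhouse regime. The JMJ6-OE group came from transgenic plants in which the histone demethylase SlJMJ6 is overexpressed, and the WT group from wild-type plants. Each group had 3 libraries. The labels give neither the promoter of the transgene, nor the number of transgenic lines, nor whether the libraries came from separate plants, so each p-value reflects the spread of these libraries only, which may be technical.

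Plastids descend from bacteria and keep their own ribosome, which makes the plastid-encoded proteins, among them core subunits of the photosystems. Its RNAs and some of its proteins come from the plastid genome, and the remaining proteins are encoded in the nucleus and imported. Mitochondria have a ribosome of bacterial descent too. During tomato ripening the green plastids of the fruit wall turn into chromoplasts, which lose the photosynthetic membranes and store carotenoids.

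The libraries held 28539410 to 36487547 counts, and the first principal component held 70.1% of the variance of log2 CPM and separated the genotypes. CPM is the count per 1000000 counts of a library. The row taken as JMJ6 (Solyc06g008490.3, 1 demethylase row of 24 with a chromosome 6 identifier, where the reference table places JMJ6, an uncertain match) stood at 31.5, 37.4 and 41.3 CPM in JMJ6-OE and at 27.0, 23.5 and 25.5 CPM in WT. Its log2 fold change was 0.54 ± 0.12 (SE, edgeR adjusted p = 0.014), and the adjusted p was 0.055 without JMJ6-OE replicate 2 and 0.054 without WT replicate 2. All 6 pericarp and ripening markers were called higher in JMJ6-OE, with summed levels of 13972 to 23268 CPM in JMJ6-OE and 1047 to 1620.2 CPM in WT, so genotype and ripening stage cannot be told apart in anything that follows. Of the 72 tested photosystem and antenna genes 47 were called lower. All 128 rows of this list summed to 3854 to 5262 CPM in JMJ6-OE, against 9870.2 to 11555 CPM in WT. Of 37 seed marker rows (oleosins and seed storage proteins) 18 held no count and 6 were tested, of which 2 were called higher. All 37 rows summed to 34.8, 62.0 and 73.7 CPM in JMJ6-OE and 11.3, 14.9 and 10.6 CPM in WT. Of 11 tested phloem genes 5 were called higher and 3 lower. All 17 phloem rows summed to 68.6 to 89.6 CPM in JMJ6-OE and 56.6 to 69.3 CPM in WT. Both tested xylem genes were called lower. All 3 xylem rows summed to 1.61 to 2.15 CPM in JMJ6-OE and 5.04 to 5.99 CPM in WT. The part of any of these differences in the results was not tested, and in whole tissue fewer cells of a type and less RNA per cell cannot be told apart.

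JMJ6-OE pericarp did not hold uniformly less transcript for plastid ribosomal proteins, although it held far less for photosystem proteins. The genes for L1, L13, L12 and a 30S protein 3, all described as chloroplastic, were 1.74- to 2.45-fold lower, while most of the others did not pass the test. Several genes for the photosystems and for plastid transcription had larger differences. Of the 83 rows, 74 had enough counts to be tested. At an adjusted p under 0.05 over all 20143 tested genes (edgeR, quasi-likelihood F-test, Benjamini-Hochberg), 9 of the 74 were called higher in JMJ6-OE, 11 lower and 54 were not called. Among all tested genes 34.3% were called, 17.5% higher and 16.8% lower, against 12.2% and 14.9% of the ribosomal protein genes. The split of calls depended on scaling. It was 3 higher and 18 lower with upper-quartile scaling, and 0 higher and 27 lower with library totals alone. Library totals move the median of all genes by 0.19 on the log2 scale relative to TMM. Of all tested genes, 3081 were higher and 3806 lower with upper-quartile scaling, and 2230 and 4950 with library totals alone. The median log2 fold change of the 74 genes was -0.02, beside -0.01 for all tested genes, and 2 genes were at least 2-fold lower and 0 at least 2-fold higher. In 14 of the 74 genes every JMJ6-OE library had a higher CPM than every WT library and in 17 a lower one, while 51.4% of all tested genes separated the groups in this way.

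The rows described as chloroplastic lay lower than the others. Of the 42 tested, 9 were called lower (21.4%), 1 higher (2.38%) and 32 were not called. Among all tested genes 16.8% were called lower, not far from the chloroplastic share, and 17.5% higher. Their median log2 fold change was -0.21, with 29 negative and 13 positive values, and JMJ6-OE lay wholly below WT for 14 genes and wholly above for 1, beside 25.7% in each direction among all tested genes. Of the 29 tested rows with neither word, 7 were called higher (24.1%), 2 lower (6.9%) and 20 were not called, with a median of 0.13. The median of the chloroplastic rows was 0.20 below that of all genes in this fit, and 0.20 to 0.21 below under every scaling, tool and filter tried, where the rows with neither word kept 0.13 to 0.14 above. Without JMJ6-OE replicate 1 the distance of the chloroplastic median was -0.10 and without JMJ6-OE replicate 3 it was -0.29, while that of the rows with neither word ran from 0.09 to 0.20 over the fits that left out 1 library. The difference between the 2 descriptions was not tested.

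**Figure D1:**
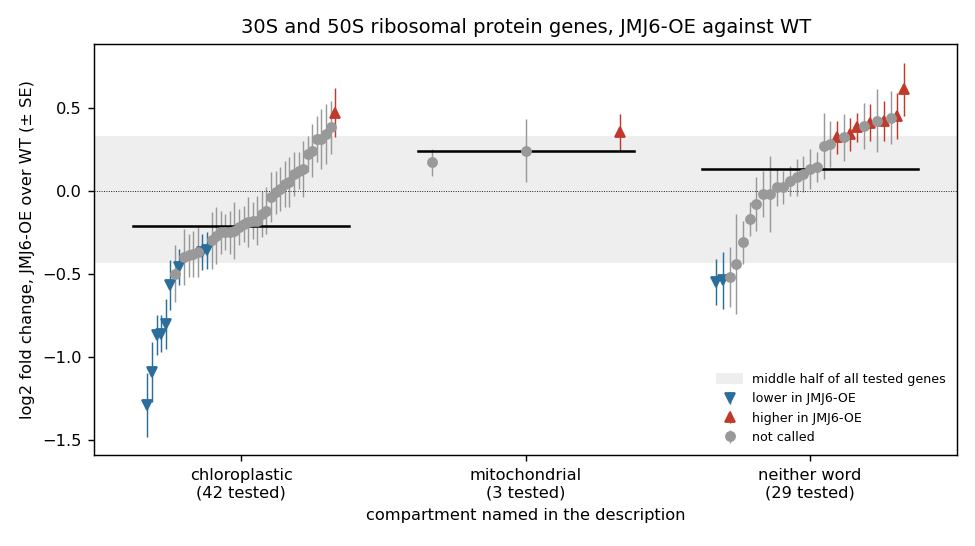
Log2 fold change, JMJ6-OE over WT (vertical axis), of each tested 30S or 50S ribosomal protein gene, grouped by the compartment in its description and ordered by value, with bars of 1 SE. Blue and red triangles mark genes called lower and higher, grey circles genes not called, black lines the medians (-0.21, 0.24 and 0.13) and the shaded band the range between the quartiles of all tested genes (-0.43 to 0.32), below which lie 7 blue triangles of the chloroplastic class.

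Small-subunit genes described as chloroplastic numbered 14, of which 12 were tested, with a median log2 fold change of -0.15. Of these, 3 were called lower (25%) and 0 higher, beside 16.8% lower and 17.5% higher among all tested genes. The lowest of all the ribosomal protein genes was Solyc05g009570.3, described as chloroplastic-like 30S ribosomal protein 3, a plastid-specific protein type with no counterpart in the Escherichia coli ribosome. Its level was 9.24, 7.49 and 5.97 CPM in the JMJ6-OE libraries and 17.8, 21.6 and 16.3 CPM in the WT libraries, that is 2.45-fold lower in JMJ6-OE (-1.29 ± 0.19 on the log2 scale, adjusted p = 0.0026). Every JMJ6-OE library was below every WT library. A second gene of the same name, Solyc03g034190.3 (symbol PSRP3), stood at 18.2, 19.5 and 22.8 CPM in JMJ6-OE and at 20.7, 21.7 and 17.8 CPM in WT. Its groups overlapped, and its log2 fold change was 0.01 ± 0.13 (adjusted p = 0.98). Of the pair, only the first was low in JMJ6-OE.

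S20, which in bacteria binds the small-subunit RNA early in assembly, was 35, 41.3 and 43.1 CPM in JMJ6-OE and 55.0, 51.8 and 46.5 CPM in WT (Solyc07g062870.3, log2 fold change -0.36 ± 0.11, adjusted p = 0.041). S10, a protein of the small-subunit head, was 41.6, 49.0 and 53.7 CPM in JMJ6-OE and 59.7, 67.4 and 59.2 CPM in WT (Solyc10g006030.3, -0.37 ± 0.11, adjusted p = 0.042). Neither gene's groups overlapped, but both calls lay close to the threshold and were lost without JMJ6-OE replicate 1, JMJ6-OE replicate 2 or WT replicate 2, with adjusted p of up to 0.10 for S20 and 0.11 for S10. Without JMJ6-OE replicate 3 or WT replicate 1 the S20 call was lost as well.

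S5, which takes part in accurate decoding in bacteria, was the most abundant small-subunit transcript that did not pass the test. It stood at 157, 201 and 222 CPM in JMJ6-OE and at 204, 228 and 199.8 CPM in WT (Solyc02g077990.3, -0.12 ± 0.14, adjusted p = 0.54). The JMJ6-OE libraries spanned a wider range than the WT libraries, and the groups overlapped. S17 (Solyc03g120630.3) lay wholly below WT, at 58.6, 70.0 and 80.4 CPM in JMJ6-OE against 103, 86.3 and 82.0 CPM in WT, without passing the test (-0.38 ± 0.14, adjusted p = 0.073). The remaining tested small-subunit genes of this description ran from -0.25 to 0.38 and none was called.

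Large-subunit genes described as chloroplastic numbered 33, of which 30 were tested, with a median log2 fold change of -0.23. Of these, 6 were called lower (20%) and 1 higher (3.33%), beside 16.8% lower and 17.5% higher among all tested genes. L1, which forms the mobile stalk where spent tRNA leaves the ribosome, had the lowest adjusted p. It was 89.7, 93.2 and 108 CPM in JMJ6-OE and 196, 171 and 161 CPM in WT (Solyc01g087730.3, -0.86 ± 0.11, adjusted p = 0.0017). L13, which in Escherichia coli joins the large subunit early in its assembly, was 61.1, 65.4 and 76.7 CPM in JMJ6-OE and 138, 116 and 119 CPM in WT (Solyc07g062190.3, -0.87 ± 0.12, adjusted p = 0.0018). For both genes the highest JMJ6-OE library was well below the lowest WT library. A second row described as chloroplastic L13, Solyc12g014395.1, was 50, 55.0 and 64.0 CPM in JMJ6-OE and 66.6, 62.3 and 62.3 CPM in WT. Its groups overlapped, and it was not called (-0.18 ± 0.11, adjusted p = 0.23).

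L12 forms the flexible stalk that recruits translation factors to the ribosome. It had 2 chloroplastic rows with adjoining identifiers, and both were called lower. Solyc02g086730.2 was 68.7, 70.6 and 91.9 CPM in JMJ6-OE and 149.9, 137 and 115 CPM in WT (-0.80 ± 0.15, adjusted p = 0.0064). Solyc02g086740.1 was 11.1, 9.72 and 15.7 CPM in JMJ6-OE and 25.2, 24.7 and 27.8 CPM in WT (-1.09 ± 0.18, adjusted p = 0.0042). Neither pair of groups overlapped. How reads shared by neighbouring copies were assigned is not given in the sources used here, so the split of the L12 signal between the rows is uncertain, while both rows differed in the same direction. The 4 L7/L12 rows with neither word ran from -0.44 to 0.34, and among them 1 was called, in the opposite direction.

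The genes for L1, L13, 30S protein 3 and the pair for L12 were called lower in every fit, including each that left out 1 library, where their adjusted p reached at most 0.013, 0.014, 0.016, 0.017 (Solyc02g086740.1) and 0.035 (Solyc02g086730.2). They were the 5 of the 9 chloroplastic calls for which this held.

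**Figure D2:**
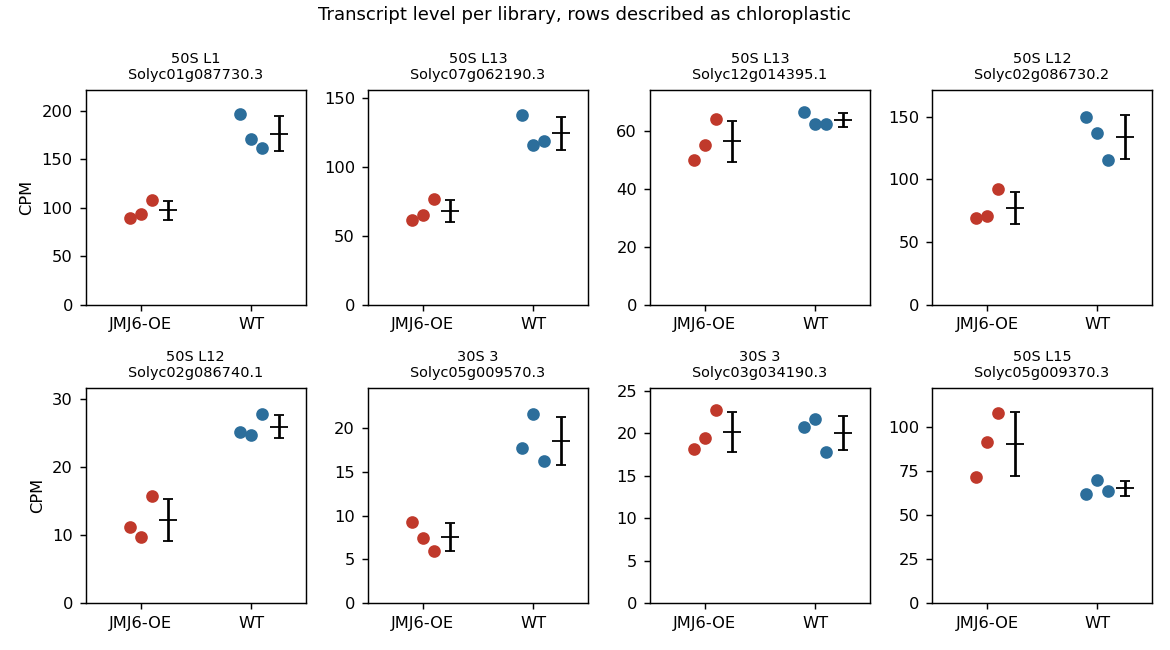
CPM in each library (points, JMJ6-OE in red and WT in blue) with the group mean and SD (black bars, n = 3) for 8 genes described as chloroplastic, each on its own axis from 0. L1, the first L13 row, both L12 rows and the first 30S protein 3 row have every JMJ6-OE point below every WT point, the second L13 and second 30S protein 3 rows overlap, and L15 has every JMJ6-OE point above WT.

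The other 2 large-subunit genes called lower were L18 and L31. L18, which in bacteria binds the small RNA of the large subunit together with L5, was 22.8, 25.7 and 26.3 CPM in JMJ6-OE and 36.9, 36.0 and 30 CPM in WT (Solyc12g098890.2, -0.46 ± 0.11, adjusted p = 0.019). The call was lost without JMJ6-OE replicate 2 or WT replicate 2 (adjusted p up to 0.063). A pair of further chloroplastic L18 rows with adjoining identifiers were not called, Solyc12g056280.2 at 0.12 ± 0.11 and Solyc12g056290.2 at 0.10 ± 0.13, and their groups overlapped. L31 (Solyc04g080630.3), found at the contact between the subunits in bacteria, was 30, 37.4 and 42.1 CPM in JMJ6-OE and 59.3, 56.8 and 45.7 CPM in WT (-0.57 ± 0.15, adjusted p = 0.026). This call was lost without JMJ6-OE replicate 2, WT replicate 1 or WT replicate 2 (adjusted p up to 0.079).

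L15, a protein of the large-subunit core, was the only chloroplastic row called higher. It was 71.4, 91.7 and 108 CPM in JMJ6-OE and 61.8, 69.7 and 63.9 CPM in WT (Solyc05g009370.3, 0.47 ± 0.15, adjusted p = 0.045). The groups did not overlap, with JMJ6-OE replicate 1 near the WT range, but the call was lost in every fit that left out 1 library except that without JMJ6-OE replicate 1, with adjusted p of up to 0.13. It was lost with upper-quartile scaling and with library totals alone too. L5, the most abundant of the 23 uncalled large-subunit genes of this description, was 67.6, 82.0 and 88.9 CPM in JMJ6-OE and 94.7, 94.7 and 89.0 CPM in WT (Solyc09g007560.3, -0.22 ± 0.11, adjusted p = 0.16). Genes for the early-assembling proteins L3 (Solyc06g051200.3, 0.31 ± 0.14), L4 (Solyc07g061900.3, -0.04 ± 0.15) and L24 (Solyc07g063960.3, 0.31 ± 0.18) were not called either. L34 (Solyc01g056780.3, -0.39 ± 0.13, adjusted p = 0.051) and a 50S protein 5 alpha (Solyc10g077090.2, -0.50 ± 0.17, adjusted p = 0.056) were just outside the threshold with JMJ6-OE wholly below WT.

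Summed over the 47 chloroplastic rows, transcript for these proteins was 1679.8, 2017 and 2297 CPM in JMJ6-OE and 2431, 2424 and 2190.5 CPM in WT. JMJ6-OE replicate 1 was the lowest library and JMJ6-OE replicate 3 lay within the WT range, so the groups overlapped. The 5 genes called lower in every fit summed to 261 ± 31.9 CPM in JMJ6-OE and 478 ± 44.7 CPM in WT (SD, n = 3), a difference of -217 CPM. The other 42 rows summed to 1737 ± 281 CPM in JMJ6-OE and 1870.3 ± 105 CPM in WT, a difference of -134 CPM that was smaller than the SD of the JMJ6-OE libraries. The 5 were chosen for their calls, so their share of the difference is a description. With library totals alone the 47 rows summed to 1683, 1871 and 2032 CPM in JMJ6-OE and to 2520.3, 2653 and 2349 CPM in WT, without overlap. The TMM-scaled sums of the 33 rows with neither word were 856, 957 and 1031 CPM in JMJ6-OE. In WT they were 941, 920.0 and 878 CPM, and the JMJ6-OE libraries surrounded the WT libraries. With library totals alone these 33 rows summed to 857, 888 and 912 CPM in JMJ6-OE and to 975, 1007 and 941 CPM in WT. The groups did not overlap there either, so this separation was not particular to the chloroplastic rows. The median log2 fold change of all tested genes was -0.20 with library totals alone.

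**Figure D3:**
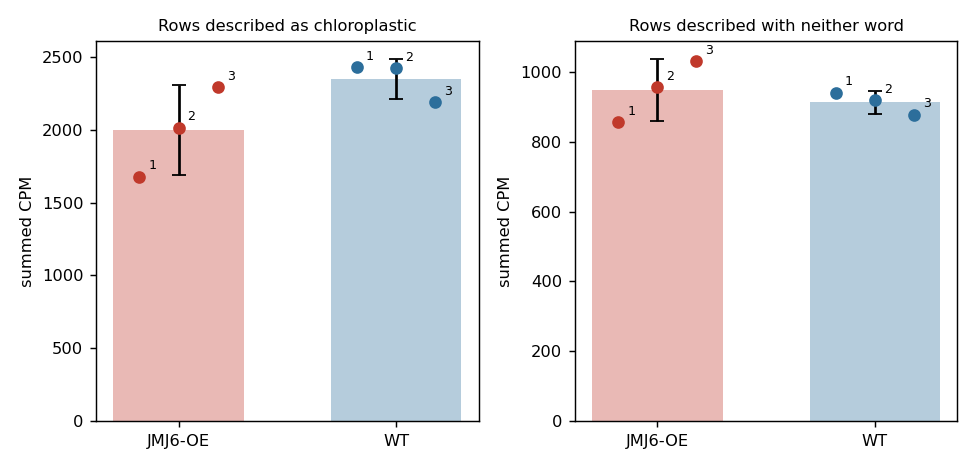
Summed CPM of the 47 rows described as chloroplastic (left) and of the 33 rows with neither word (right), as one point per library with its replicate number, bars for the group means and black error bars of 1 SD (n = 3). JMJ6-OE replicate 1 is the lowest point in both panels, and JMJ6-OE replicate 3, at 2297 and 1031 CPM, reaches or passes the WT libraries.

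The chloroplastic genes did not sit at one level within JMJ6-OE, and the order of its libraries was not particular to them. Relative to the WT mean, the median log2 difference of the 42 tested genes was -0.44 in JMJ6-OE replicate 1, -0.20 in replicate 2 and -0.01 in replicate 3, and 0.05, 0.08 and -0.11 in the WT libraries. Replicate 3 was thus within the WT span at the median. It was below every WT library for each of the 5 genes named above, at 108 CPM for L1 where the lowest WT library had 161 CPM. Those 5 were chosen for calls that used this library, so its low values there are a description only. The rows with neither word rose in the same order, with medians of 0.07, 0.11 and 0.20 in JMJ6-OE replicates 1 to 3. The summed photosystem and antenna genes did too, at 3854, 4844 and 5262 CPM.

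Levels were compared between genes per transcript length, in the authors' FPKM (fragments scaled by transcript length and library size). S5 had the highest FPKM of the tested ribosomal protein genes in both groups, at 188 ± 21.4 in JMJ6-OE and 235 ± 22.0 in WT (SD, n = 3). L12 (Solyc02g086730.2) had rank 5 in JMJ6-OE, with 82.3 ± 9.60 FPKM, and rank 2 in WT, with 163 ± 19.7 FPKM. L13 (Solyc07g062190.3) had 64.8 ± 4.11 FPKM in JMJ6-OE and 135 ± 9.51 FPKM in WT, and L1 had 63.0 ± 3.10 FPKM in JMJ6-OE and 130.5 ± 10.6 FPKM in WT. Their ranks were 9 and 13 in JMJ6-OE, against 4 and 5 in WT, where these neighbours in the order differed by less than their SD. Among the 74 tested genes 50S protein 5 alpha had the lowest level in both groups, 1.32 ± 0.0866 FPKM in JMJ6-OE and 2.12 ± 0.25 FPKM in WT. The median was 43.4 FPKM in JMJ6-OE and 55.0 FPKM in WT for the chloroplastic rows, and 18.4 FPKM in JMJ6-OE and 17.8 FPKM in WT for the rows with neither word. The log2 ratio of mean FPKM had a median of -0.20 over all tested genes, beside -0.01 in the TMM fit. Gaps between the genotypes in FPKM therefore cannot be set beside those in TMM-scaled CPM.

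Only 3 rows named a mitochondrion, and all were tested. L21 was called higher, at 35.8, 35.3 and 41.5 CPM in JMJ6-OE and 26.3, 30.7 and 31.2 CPM in WT (Solyc02g078200.3, 0.35 ± 0.11, adjusted p = 0.044), and only the fit without JMJ6-OE replicate 1, of those that left out 1 library, kept that call. The row with the symbol HLP, a gene known in Arabidopsis as HUELLENLOS PARALOG, was 51.0, 50.6 and 55.1 CPM in JMJ6-OE and 49.2, 44.1 and 46.0 CPM in WT (Solyc03g119380.2, 0.17 ± 0.08, adjusted p = 0.16). S31 was low, at 5.36, 7.70 and 6.12 CPM in JMJ6-OE and 6.05, 5.26 and 4.89 CPM in WT (Solyc01g110400.2, 0.24 ± 0.19, adjusted p = 0.35). The groups overlapped for S31 only.

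Among the small-subunit rows with neither word, 7 in number and 6 tested, 2 were called higher (33.3%) and 0 lower. The shares among all tested genes were 17.5% higher and 16.8% lower. The largest increase of all the ribosomal protein genes was that of the row described as a homolog A of S1, the protein that holds messenger RNA on the bacterial small subunit. It was 76.5, 104 and 103 CPM in JMJ6-OE and 52.6, 71.7 and 61.6 CPM in WT (Solyc00g009100.3, 0.61 ± 0.16, adjusted p = 0.022). S17 was 11.8, 11.2 and 12 CPM in JMJ6-OE and 9.20, 8.62 and 8.65 CPM in WT (Solyc12g009380.2, 0.41 ± 0.11, adjusted p = 0.029). In both genes all JMJ6-OE libraries were above all WT libraries. S13, the most abundant uncalled row of this kind, was 38.3, 52.2 and 58.6 CPM in JMJ6-OE and 53.3, 56.7 and 47.5 CPM in WT (Solyc05g005873.1, -0.08 ± 0.16, adjusted p = 0.73).

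Of the 26 large-subunit rows with neither word, 23 were tested, 5 called higher (21.7%) and 2 lower (8.7%). The shares of all tested genes were 17.5% higher and 16.8% lower. L9 was 30.4, 32.2 and 34.5 CPM in JMJ6-OE and 25.5, 23.4 and 25.7 CPM in WT (Solyc05g032880.3, 0.38 ± 0.09, adjusted p = 0.018). L27, whose bacterial form reaches the site of peptide bond formation, was 19.3, 22.6 and 22.3 CPM in JMJ6-OE and 17.7, 15.0 and 15.2 CPM in WT (Solyc11g071320.2, 0.42 ± 0.12, adjusted p = 0.028). L7/L12, of the factor-binding stalk, was 33.1, 35 and 32.0 CPM in JMJ6-OE and 26.0, 29.0 and 23.9 CPM in WT (Solyc02g031970.1, 0.34 ± 0.10, adjusted p = 0.035). These differences were small, under 1.5-fold, and each left the groups apart. L15 (Solyc02g081310.3, 0.45 ± 0.14, adjusted p = 0.047) and L4, which lines the exit tunnel (Solyc12g088730.2, 0.32 ± 0.10, adjusted p = 0.047), were called at the edge of the threshold.

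None of the 9 calls of higher transcript, chloroplastic and mitochondrial ones included, remained without JMJ6-OE replicate 2, without JMJ6-OE replicate 3 or without WT replicate 3. Of them, 2 remained without WT replicate 1, 3 without WT replicate 2 and 9 without JMJ6-OE replicate 1, the library with the lowest summed level, where 16 were called in all.

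The 2 rows with neither word that were called lower were L17 and L18. L17, at the end of the exit tunnel in bacteria, was 69.0, 68.4 and 74.1 CPM in JMJ6-OE and 125, 85.9 and 97.8 CPM in WT (Solyc08g067950.3, -0.55 ± 0.14, adjusted p = 0.021; 0.082 without JMJ6-OE replicate 2). L18 was 5.15, 4.01 and 4.34 CPM in JMJ6-OE and 5.92, 7.02 and 6.72 CPM in WT (Solyc05g007910.3, -0.54 ± 0.17, adjusted p = 0.042), and only the fit without JMJ6-OE replicate 1, of those that left out 1 library, kept that call. WT replicate 1 was the highest library for L17 by a wide step, and L18 was low throughout.

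Several names recurred among the rows with neither word, and their copies did not move together. Of 3 L27 rows, Solyc11g068820.2 was by far the most abundant, at 102, 113 and 143 CPM in JMJ6-OE and 152, 150.2 and 142 CPM in WT, and was not called (-0.31 ± 0.13, adjusted p = 0.10). Its highest JMJ6-OE library passed the lowest WT library only narrowly. The third L27 row, Solyc08g068220.3, gave 0.02 ± 0.10. Besides the L7/L12 row called higher, Solyc02g092300.1 (0.28 ± 0.14), Solyc09g010030.2 (0.08 ± 0.11) and Solyc11g071530.1 (-0.44 ± 0.30) were not called. Of the other L18 rows with neither word, Solyc07g045390.2 (0.32 ± 0.14) and Solyc01g088460.3 (0.27 ± 0.20) were not called, although all JMJ6-OE libraries were above all WT libraries in both.

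With L7/L12 counted as L12 and the S1 homolog A as S1, 13 proteins had tested rows both with the word chloroplastic and without it. For L21 and S31 the row without it was a mitochondrial one. The chloroplastic rows had the lower mean log2 fold change for 10 of them and the higher for 3 (L15, L17 and L24). For L12 the means were -0.94 over the chloroplastic rows and 0.07 over the others, for L1 they were -0.86 and 0.02, and for S17 -0.38 and 0.41. L15 differed little, at 0.47 and 0.45. The differences within a name were not tested. The L1 row with neither word (Solyc12g013990.2) carries the symbol SIS8 in the table, which in Arabidopsis is that of a protein kinase, so its identity is uncertain.

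Of the 83 rows, 9 were not tested. No count was found in any library for 7 of them, which allows up to 0.0822 to 0.105 CPM per library at a floor of 3 counts. These were Solyc00g026875.1 (L21), Solyc01g057250.2 (L3-2), Solyc01g065575.1 and Solyc02g011877.1 (both S12), Solyc02g085495.1 (S7), Solyc04g077130.1 (50S protein 6) and Solyc09g055460.2 (L20). The floor covers counting error only. How reads shared between copies were assigned is not given in the sources used here, so 0 counts need not mean absent transcript. An L18 row, Solyc01g088470.3, had 22, 0 and 0 counts in JMJ6-OE and 0, 1 and 0 in WT, all but 1 of them in JMJ6-OE replicate 1. An L4 row, Solyc10g047150.2, had 1, 0 and 0 counts in JMJ6-OE and 3, 7 and 9 in WT.

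The plastid translation apparatus beyond the ribosomal proteins was followed through genes chosen by their descriptions. The shares of calls in these lists stand beside 17.5% higher and 16.8% lower among all tested genes. Of 10 tested plastid translation factors 1 was called higher (10%) and 3 lower (30%), with a median log2 fold change of -0.30. The release factor PrfB3 was 23.7, 22.9 and 24.3 CPM in JMJ6-OE and 40.7, 42.4 and 42.0 CPM in WT (Solyc10g079840.2, -0.82 ± 0.08, adjusted p = 5.6e-04). The ribosome-recycling factor, which splits the ribosome after termination, was 43.0, 45.6 and 51.0 CPM in JMJ6-OE and 64.5, 77.0 and 64.5 CPM in WT (Solyc09g065270.3, -0.56 ± 0.11, adjusted p = 0.0075). PrfB2 was called higher (0.40 ± 0.10, adjusted p = 0.021). The groups of PrfB3 and of the recycling factor were well apart.

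Of 26 tested organelle aminoacyl-tRNA ligases, 2 were called higher (7.69%) and 6 lower (23.1%), with a median of -0.12. The ligases with the lowest adjusted p were a valine ligase described as mitochondrial (Solyc09g007540.3, -0.66 ± 0.11, adjusted p = 0.0042), and the leucine (Solyc02g080990.2, -0.49 ± 0.08, adjusted p = 0.0043) and alanine (Solyc01g111990.3, -0.48 ± 0.09, adjusted p = 0.0056) ligases described as chloroplastic/mitochondrial. The leucine ligase was at 33.1, 31.0 and 30.1 CPM in JMJ6-OE and at 43.5, 43.3 and 45.2 CPM in WT. Of 17 tested genes of plastid transcription, 2 were called higher (11.8%) and 7 lower (41.2%), with a median of -0.18. PTAC16, found in the plastid transcription complex of Arabidopsis, was 14.1, 12.9 and 17.1 CPM in JMJ6-OE and 40.5, 44.5 and 39.5 CPM in WT (Solyc06g005710.3, -1.50 ± 0.13, adjusted p = 3.5e-04). The sigma factor sigA, which directs the plastid-encoded polymerase to promoters, was 2.36, 2.35 and 1.96 CPM in JMJ6-OE and 7.47, 7.19 and 8.14 CPM in WT (Solyc03g097320.3, -1.77 ± 0.17, adjusted p = 5.2e-04). Both log2 fold changes were larger in size than any among the ribosomal protein genes. The words that chose this list, such as sigma factor and nucleoid, did not all require a plastid word. They also took in a row described as a chloroplastic-like sigma factor binding protein 1, not as a sigma factor or polymerase subunit. It was called lower as well (Solyc10g078440.1, -1.86 ± 0.23, adjusted p = 0.0014).

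The list searched for plastid RNA handling and assembly had 19 tested genes, with 3 called higher (15.8%), 4 lower (21.1%) and a median of 0.01. A 28 kDa ribonucleoprotein was lower (Solyc04g074750.3, -0.97 ± 0.13, adjusted p = 0.0017) and a DEAH11-like helicase higher (Solyc11g010310.2, 0.62 ± 0.10, adjusted p = 0.0042). The word GTPase also took in a row whose description names neither RNA nor a ribosome. This transmembrane GTPase was called lower (Solyc09g065155.1, -0.85 ± 0.14, adjusted p = 0.0036). Of 59 tested genes of plastid import and chaperones, 7 were called higher (11.9%) and 8 lower (13.6%), with a median of -0.05. The 204 tested cytosolic ribosomal protein genes had 23 calls of higher (11.3%) and 21 of lower transcript (10.3%), with a median of 0.02. Mitochondrial ribosomal proteins described without 30S or 50S had 26 tested genes, with 3 called higher (11.5%), 0 lower and a median of 0.04. Plastid ribosomal proteins described without 30S or 50S had 44 rows, but 33 held no count and only 2 were tested, of which PSRP1 was called lower (-0.42 ± 0.12, adjusted p = 0.036). The 72 photosystem and antenna genes had a median of -1.20, beside -0.21 for the chloroplastic ribosomal protein genes and -0.01 for all tested genes.

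In the authors' deposited table, a false discovery rate under 0.05 was given to 21 of the 83 rows, 9 higher and 12 lower in JMJ6-OE. Over all 36224 rows it was given to 3836 higher and 3837 lower. Among the 47 rows described as chloroplastic the deposited table had 1 higher and 10 lower.

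**Figure D4:**
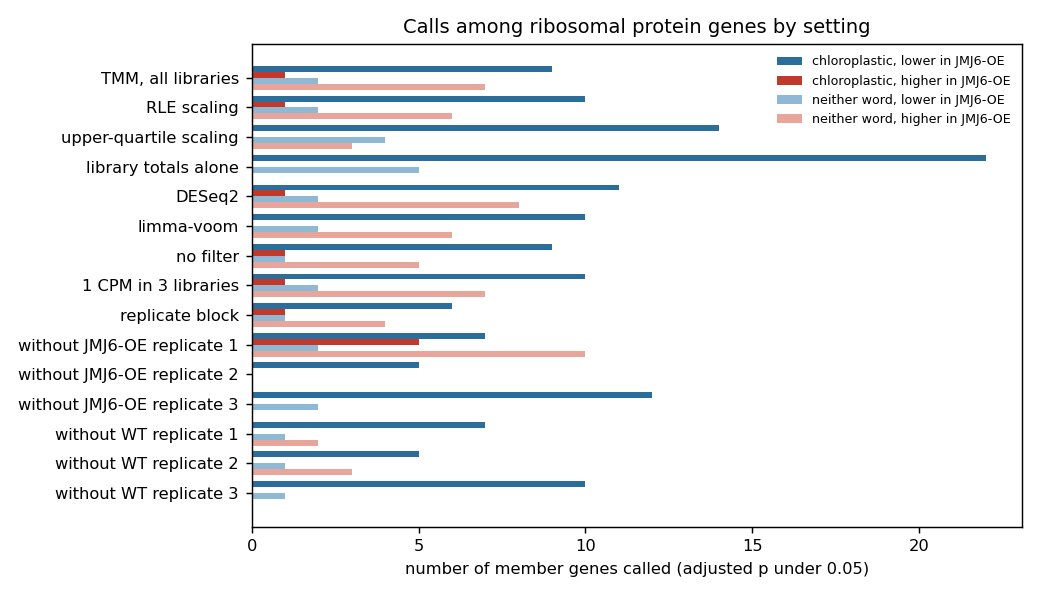
Number of ribosomal protein genes called at an adjusted p under 0.05 (horizontal axis, from 0) in each setting (rows), with dark bars for rows described as chloroplastic and pale bars for rows with neither word, blue for lower and red for higher in JMJ6-OE. Calls of lower transcript among the chloroplastic rows run from 5 to 22, and calls of higher transcript fall to 0 with library totals alone and without JMJ6-OE replicate 2, JMJ6-OE replicate 3 or WT replicate 3.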

How the data were processed

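RNA-seq libraries of JMJ6-OE and WT pericarp at 37 days after anthesis, 3 each, were grouped by sample title. Per the submitters' processing notes HISAT2 was used. For its version, for the counting of reads and its strand setting, and for the build and annotation, the entry is: not given in the sources used here. Per the file headers, the deposited table holds the authors' raw count and the authors' FPKM per gene and library. Per the file headers, the authors' comparison adds a log2 fold change and p-value columns (p and false discovery rate). The deposited log2 fold was checked to be the log2 ratio of mean FPKM within 0.01 in each of the 36224 rows, where a mean of 0 counts as 0.001.

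Counts were filtered by filterByExpr (minimum count 10), scaled by TMM and fitted with genotype alone in edgeR 4.0.16 (glmQLFit with robust estimation and glmQLFTest, under R 4.3.3). P-values were adjusted by Benjamini-Hochberg over 20143 genes, with calls at 0.05. CPM values are on TMM-scaled library sizes. The SE is the absolute log2 fold change over the root of F, and the common biological coefficient of variation was 0.214. Floors cover counting error only. FPKM served to compare levels between genes. The fit was tested on simulated counts.

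Members and lists were chosen by description, with earlier results of these data known. In each class of subunit and compartment, up to 4 called genes per direction by adjusted p and the most abundant uncalled gene were named, with all rows of a recurring name in which 1 was called, and up to 3 called genes per further list. Chloroplastic L3, L4, L24, S17, L31, L34 and 5 alpha and the row with the symbol SIS8 were named after their values were seen. The words TIC and TOC of the import list were matched as whole words after the data were seen, since they also occurred inside other words. Alternatives were RLE and upper-quartile scaling, library totals alone (chosen after seeing the data), DESeq2 1.42.0, limma-voom (limma 3.58.1), no filter, 1 CPM in 3 libraries, a replicate block, and leaving out each library. Figures were drawn with matplotlib 3.10.9.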

Additional observations from a re-analysis of the deposited data

How the results depend on the processing

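The counts of calls depended on scaling. With upper-quartile scaling 3 ribosomal protein genes were called higher and 18 lower, among them 0 and 14 chloroplastic rows and 3 and 4 rows with neither word. With library totals alone 0 were higher and 27 lower (22 chloroplastic, 5 with neither word). The medians there were -0.21 for all 74 genes and -0.07 for the rows with neither word. Of all 20143 tested genes, 2230 were higher and 4950 lower with library totals alone, against 3081 and 3806 with upper-quartile scaling. No chloroplastic gene was called higher by limma-voom (0), and 1 row with neither word was called lower with no filter. With the replicate block 7 were lower (1 with neither word) and 4 rows with neither word were higher. Same-numbered libraries deviated from their group means with correlations of -0.0603 to 0.0638, and JMJ6-OE replicate 2 correlated best with WT replicate 3. These values showed no pairing by number, but they cannot tell whether the libraries were collected or processed in pairs. Leaving out 1 library at a time gave 0 to 16 genes called higher and 5 to 14 lower with medians of -0.09 to 0.06. Among these, chloroplastic rows gave 0 to 5 higher and 5 to 12 lower with medians of -0.31 to -0.11, rows with neither word 0 to 10 higher and 0 to 2 lower with medians of 0.05 to 0.18, and all genes 2027 to 4169 higher and 2046 to 3962 lower. The cause was not tested. In those fits S5 ran from -0.23 to 0.01, Solyc12g056290.2 (L18) from -0.04 to 0.13 and Solyc08g068220.3 (L27) from -0.05 to 0.07, all uncalled. Only genes not called changed sign. With library totals alone those of them named by the rule were 30S protein 3 Solyc03g034190.3 (-0.19), L27 Solyc08g068220.3 (-0.16), L7/L12 Solyc09g010030.2 (-0.11), L18 Solyc12g056290.2 (-0.08) and Solyc12g056280.2 (-0.07) and HLP (-0.02). Solyc03g034190.3 was -0.06 with upper-quartile scaling, -0.00 at 1 CPM in 3 libraries, and -0.09, -0.01 and -0.12 without JMJ6-OE replicate 3, WT replicate 1 and WT replicate 3. Solyc08g068220.3 was -0.04 with upper-quartile scaling and -0.02, -0.05 and -0.00 without JMJ6-OE replicate 2, WT replicate 2 and WT replicate 3. S13 was 0.08 without JMJ6-OE replicate 1. Depth limited the least abundant rows: the largest SE, 0.30, was that of an L7/L12 row at 1.04 to 2.24 CPM.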
